A study of Mus musculus with 4 samples.

Results

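Fragments of 2 short nuclear RNAs, named 5S-rRNA and 4.5S-rRNA in the annotation, were followed in 4 mouse small RNA libraries. A member was any distinct sequence of 18 nt or longer whose annotation held that name and no other. The rule gave 1164 sequences of 5S-rRNA and 507 of 4.5S-rRNA, 1671 of the 1442059 distinct sequences of that length. The libraries fall into an Mdd group of 2 and a control group of 2, all C57BL mice. Per the labels, Mdd mice met a random daily stressor (empty, tilted or damp cage, white noise, strobe light, restraint, isolation or a disturbed light cycle), and control mice were left alone apart from feeding and cage cleaning. The study asked how short RNAs of sperm differ in male mice made depressive-like in this way. RNA came from sperm per the protocol, while the tissue field reads testis, and the labels give no age and no statement that replicates were separate animals. P-values thus reflect the spread among the libraries as deposited, and that spread may be technical.

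5S rRNA is a small component of the large ribosomal subunit. RNA polymerase III transcribes it from tandem repeats with the help of TFIIIA, and the RNA then travels with the ribosomal proteins RPL5 and RPL11. 4.5S RNA of rodents is also made by RNA polymerase III from a tandem repeat and resembles the B1 family of short interspersed elements. It is a nuclear RNA and no part of the ribosome, in spite of the rRNA name it carries in the annotation. Maturing sperm shed most of their cytoplasm and ribosomes, and short rRNA fragments are among the RNAs found in them.

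The members of each name fitted a single assembled sequence, apart from a 4.5S member described below. All 1164 5S sequences overlapped into a single RNA of 121 bases, on which each of them had 1 exact place. Its first 119 bases are those of n-R5s100 (ENSMUSG00000094720.1), an annotated 5S rRNA gene at chr8:123538786-123538904 on the minus strand of GRCm38 (GENCODE vM21), and 32 of the 354 annotated rRNA transcripts have that same sequence. The reads ran 2 bases past the annotated end, into a run of T. Of the 507 4.5S sequences, 506 had 1 exact place on an RNA of 95 bases that ends in a run of 7 T, and the other sequence, with 10 reads, could not be placed. Positions below count from 1 at the 5′ end of these 2 RNAs. The 4.5S positions rest on the reads alone, since no annotated 4.5S transcript was used. Whether some 4.5S reads came from B1 elements or other copies was not tested.

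The fragments that carry the results are given here 5′ to 3′ as DNA letters, with the last 2 bases in capitals. The 5S set holds the most read fragment of the middle of the RNA, 2 neighbouring 3′ fragments that end at base 120, and a shorter 3′ fragment that ends at base 117.
5S bases 55 to 72: agcagggtcgggcctgGT
5S bases 98 to 120: ggaataccgggtgctgtaggcTT
5S bases 99 to 120: gaataccgggtgctgtaggcTT
5S bases 96 to 117: tgggaataccgggtgctgtaGG
The 4.5S set holds 2 fragments that share their 3′ end at base 62, and the most read fragments that end at bases 34 and 40.
4.5S bases 43 to 62: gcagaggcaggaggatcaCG
4.5S bases 44 to 62: cagaggcaggaggatcaCG
4.5S bases 1 to 34: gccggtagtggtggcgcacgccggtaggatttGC
4.5S bases 12 to 40: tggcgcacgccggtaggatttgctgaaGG
These members overlap in sequence and are not independent of one another.

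Reads of 18 nt or longer numbered 23748630 and 23806805 in Mdd replicates 1 and 2, against 9706895 and 16763277 in control replicates 1 and 2. The members took 0.647% and 2.37% of them in Mdd, against 0.512% and 0.568% in controls. All levels below are CPM, the count scaled to the same total of these reads in every library. A count of 0 allows at most 0.126 CPM in either Mdd library, against 0.309 and 0.179 CPM in controls. The shorter reads, 15 to 17 nt long and left out here, were 1.18% and 1.27% of the Mdd libraries, against 24.4% and 27.0% of the controls. Control replicate 2 stood apart in its marker miRNAs. Its striated muscle markers summed to 65737 CPM of miRNA reads, against 989 to 3880 CPM in the other libraries. All 4 of these markers were detected in both controls and in Mdd replicate 2, and 3 in Mdd replicate 1. Erythroid markers of control replicate 2 summed to 5718 CPM, against 46313 to 59564 CPM in the other libraries. Germ cell markers summed to 257239 and 211465 CPM in Mdd, against 223610 and 103129 CPM in controls. Any part of these markers in the results below was not tested.

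4.5S fragments were far more frequent in 1 Mdd library than in the other 3 libraries, while 5S fragments differed less. 4.5S-rRNA stood at 1198 CPM (28445 reads) in Mdd replicate 1 and 14926 CPM (355337 reads) in Mdd replicate 2, against 783 CPM (7601 reads) and 1228 CPM (20591 reads) in control replicates 1 and 2. Mdd replicate 2 was 12.5-fold above Mdd replicate 1, whereas the other 3 libraries lay within 1.57-fold of one another and Mdd replicate 1 lay between the controls. 5S-rRNA stood at 5275 CPM (125266 reads) and 8736 CPM (207977 reads) in Mdd, against 4336 CPM (42093 reads) and 4455 CPM (74674 reads) in controls. From 18 nt upward the 5S groups did not overlap, and Mdd replicate 2 was again the highest, 1.66-fold above Mdd replicate 1. From 15 nt upward they overlapped, with 5S at 0.530% and 0.871% of all reads in Mdd, against 0.580% and 0.630% in controls, so Mdd replicate 1 was then below both controls. As a share of reads 5S-rRNA averaged 0.701% ± 0.245 in Mdd and 0.440% ± 0.00836 in controls (SD, n = 2 each), a difference of 0.261 percentage points. That difference was 0.0955 from 15 nt upward, 0.473 over genome-matched sequences, 0.434 without Mdd replicate 1 and 0.0879 without Mdd replicate 2. For 4.5S-rRNA the averages were 0.806% ± 0.971 and 0.101% ± 0.0315 in the same order, a difference of 0.706 percentage points that is smaller than the spread within the Mdd group. Without Mdd replicate 2 it was 0.0192. Two-sided exact permutation p-values were 0.333 for 5S-rRNA and 0.667 for 4.5S-rRNA (n = 2 each), where 0.333 is the smallest that 2 against 2 libraries allow. The 95% Wilson interval of the 4.5S share of Mdd replicate 2 spanned 1.488% to 1.497%, and that of the 5S share of the same library spanned 0.870% to 0.877%, with reads as the unit. Amplified reads are not independent molecules, so such intervals and the limits for a count of 0 cover counting error only. In these bulk libraries fewer cells that carry an RNA and less of it per cell cannot be told apart.

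**Figure D1:**
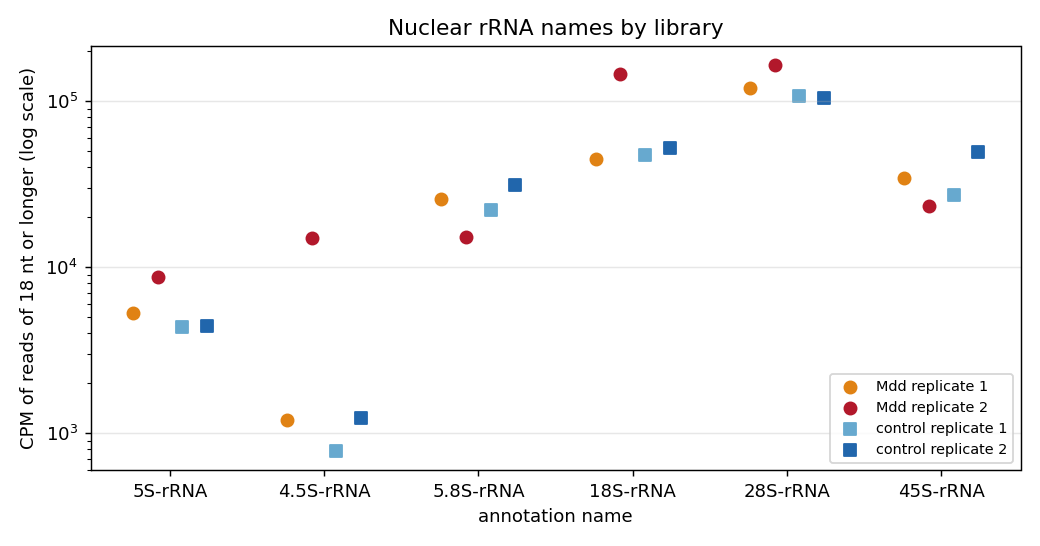
CPM of reads of 18 nt or longer (log axis) for the 6 nuclear rRNA names in each library, with Mdd libraries as circles and controls as squares. 4.5S-rRNA of Mdd replicate 2 sits at 14926 CPM, against 783 to 1228 CPM in the other 3 libraries.

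Fitted over all 577 annotation names with edgeR's quasi-likelihood test, neither name passed the Benjamini-Hochberg threshold of 0.05, nor did any other name (0% called). The log2 fold change of Mdd over control was 1.19 (SE 0.60, adjusted p = 0.652) for 5S-rRNA and 3.69 (SE 1.08, adjusted p = 0.618) for 4.5S-rRNA. Unadjusted p-values in that edgeR fit were 0.0771 and 0.00642 in the same order, and over all names 14 higher and 22 lower had an unadjusted p under 0.05. DESeq2 called 11 names (1.91%), among them 4.5S-rRNA at an adjusted p of 0.00595 but not 5S-rRNA. Without Mdd replicate 2, in a fit blind to the spread within Mdd, the edgeR values were 0.45 for 5S-rRNA and 0.47 for 4.5S-rRNA. With the same limit, without Mdd replicate 1 they were 1.76 and 4.69. Scaling moved these values: by library size alone the median of all names was -0.35, with 0.72 for 5S-rRNA and 3.07 for 4.5S-rRNA, against a median of -0.00 under the TMM scaling used.

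The other nuclear rRNA names varied in which library was highest. 18S-rRNA, of the small subunit, had 44803 and 145548 CPM in Mdd, against 47054 and 52210 CPM in controls, so Mdd replicate 2 was the highest here too, 3.25-fold above Mdd replicate 1. 5.8S-rRNA, which pairs with 28S in the large subunit, had its lowest value in the same library (25811 and 15250 CPM in Mdd, against 22115 and 31231 CPM in controls). 28S-rRNA had 119811 and 164451 CPM in Mdd, against 107014 and 104537 CPM in controls. Reads of 45S-rRNA, the common precursor of 18S, 5.8S and 28S, stood at 34672 and 23279 CPM in Mdd, against 27205 and 49527 CPM in controls. 0 of these 4 nuclear names passed in edgeR, with log2 fold changes of 1.53 (SE 0.66) for 18S-rRNA and 0.04 for 5.8S-rRNA. Among 226 tRNA names, also products of RNA polymerase III, 0 passed in either direction, 9 had an unadjusted p under 0.05 on the higher side and 1 on the lower, and 4.5S-rRNA was not tested against them. The ratio of 4.5S to 5S reads was 0.227 and 1.71 in Mdd replicates 1 and 2, against 0.181 and 0.276 in controls.

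Most distinct 5S fragments were seen in few libraries, but a core held most reads. Mdd replicates 1 and 2 held 524 and 725 distinct 5S sequences, against 683 and 733 in controls, and 302 were read in all 4 libraries. That core carried 93.7% and 94.0% of the 5S reads in Mdd, against 90.6% and 91.4% in controls. For 4.5S-rRNA the libraries held 190 and 331 distinct sequences in Mdd, against 173 and 227 in controls, with 76 in all 4. Mdd replicate 2 alone held 153 of the 507 4.5S sequences, against 40 for Mdd replicate 1, 36 for control replicate 1 and 66 for control replicate 2. They carried 0.742% of its 4.5S reads, against 2.45%, 4.41% and 4.09% in the same order. Mdd replicate 2 had 355337 4.5S reads, against 28445, 7601 and 20591 in that order, and these counts of sequences were not adjusted for reads. The sequences read cover 45.9% of all fragments of 18 to 45 nt that the 5S RNA could give and 28% of those of the 4.5S RNA. Within a library the 10 most read sequences held 33.6% to 36.2% of 5S reads and 53.4% to 60.2% of 4.5S reads.

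5S coverage had 3 raised stretches, at the 5′ end, in the middle and at the 3′ end. In all 4 libraries the 3′ stretch was the deepest, with its top at base 104, and the lowest base was 43 or 74. Reads that start at base 1 stood at 938 and 323 CPM in Mdd, against 796 and 495 CPM in controls. Reads that end at bases 72 or 73, the end of the middle stretch, stood at 927 and 963 CPM in Mdd, against 836 and 971 CPM in controls, and these groups overlapped. Reads that reach bases 119 to 121 stood at 2331 and 5148 CPM in Mdd, against 1573 and 1915 CPM in controls, and the groups did not overlap. This 3′ part made up 44.2% and 58.9% of 5S reads in Mdd, against 36.3% and 43.0% in controls, a difference of 11.9 percentage points (exact permutation p = 0.333, adjusted 0.417 over 5 position classes). It was 19.3 without Mdd replicate 1 and 4.56 without Mdd replicate 2. The 5′ part made up 17.8% and 3.70% in Mdd, against 18.3% and 11.1% in controls, which overlap. Reads that touch neither end made up 38.0% and 37.4% in Mdd, against 45.4% and 45.9% in controls, again without overlap. This class includes reads that end at bases 116 to 118, with 3.30% and 14.9% in Mdd, against 5.06% and 5.32% in controls. The 2 Mdd libraries thus had a like total of unlike make-up.

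**Figure D2:**
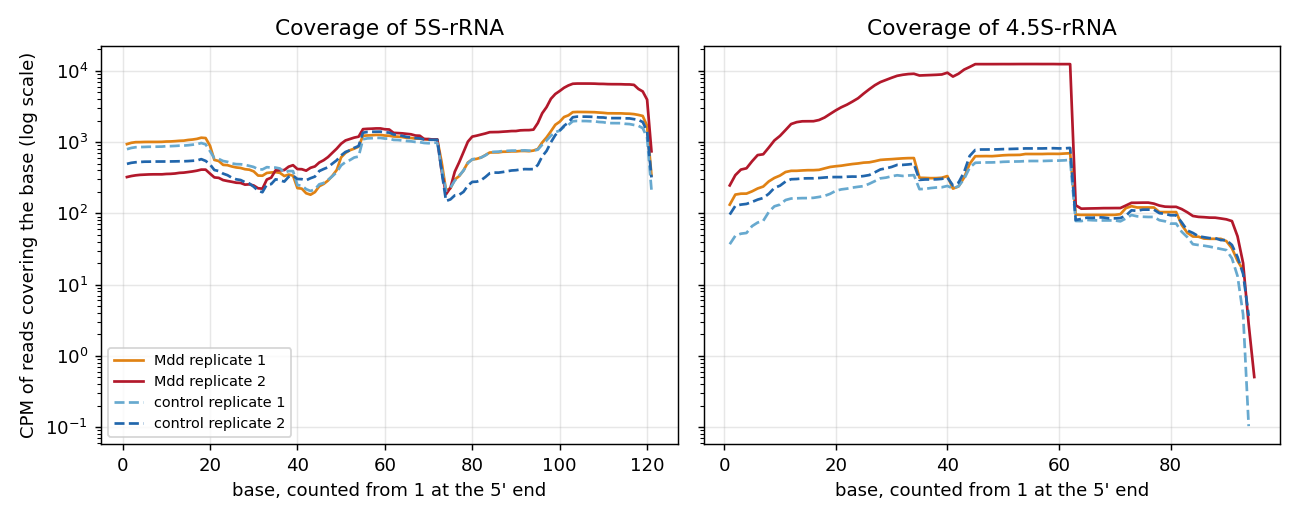
CPM of reads that cover each base (log axis) along the 5S RNA on the left and the 4.5S RNA on the right, with solid lines for Mdd and dashed lines for control libraries. Coverage of 4.5S drops after base 62 in all 4 libraries, and the line of Mdd replicate 2 stands above the other 3 on both sides of that base. It lies at 12450 CPM at base 62, against 564 to 829 CPM in the others. At base 63 it lies at 130 CPM, against 78.2 to 96.0 CPM.

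Among 5S 3′ fragments most reads ended at base 120, 1 base past the annotated gene. These had 1353 and 3209 CPM in Mdd, against 947 and 1100 CPM in controls, while reads that end at base 119 had 638 and 1197 CPM in Mdd, against 412 and 496 CPM in controls. The shorter end at base 117 had 62.5 and 781 CPM in Mdd, against 44.5 and 48.3 CPM in controls. Mdd replicate 2 was 12.5-fold above Mdd replicate 1 at that base, compared with 2.37-fold at base 120. The 22-nt fragment of bases 96 to 117, which ends in GG, had 6.74 and 121 CPM in Mdd, against 2.88 and 10.3 CPM in controls, so Mdd replicate 1 lay between the controls.

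No 5S fragment of those with the highest mean CPM passed the threshold in edgeR. The leading fragment in Mdd replicate 1 and in both controls was the 18-nt fragment of bases 55 to 72, with 344 and 313 CPM in Mdd, against 451 and 446 CPM in controls. Its CPM was lower in both Mdd libraries, yet after TMM scaling its log2 fold change was -0.06 (SE 0.79), and it was 0.03 with RLE scaling. The 23-nt fragment of bases 98 to 120 led in Mdd replicate 2, with 135 and 522 CPM in Mdd, against 84.4 and 137 CPM in controls. Shorter by 1 base, the fragment of bases 99 to 120 had 179 and 340 CPM in Mdd, against 69.3 and 106 CPM in controls, a log2 fold change of 2.08 (SE 0.93, adjusted p = 0.450 in edgeR) with both Mdd libraries above both controls. Fragments of bases 101 to 120 and 96 to 120 also showed no overlap between groups, at 161 and 322 CPM and at 97.4 and 308 CPM in Mdd, against 77.4 and 113 CPM and 72.9 and 73.4 CPM in controls. Those of bases 103 to 120 overlapped, with 197 and 273 CPM in Mdd, against 186 and 269 CPM in controls.

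The 5′ fragments of 5S went another way. The fragment of bases 1 to 20 had 312 and 41.0 CPM in Mdd, against 151 and 82.8 CPM in controls, and that of bases 1 to 19 had 251 and 54.2 CPM in Mdd, against 173 and 70.6 CPM in controls. In both cases Mdd replicate 1 was the highest library and Mdd replicate 2 the lowest, so the 2 Mdd libraries enclosed the controls.

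4.5S reads ended chiefly at base 62. Reads with that end had 606 and 12321 CPM in Mdd, against 487 and 755 CPM in controls, and made up 50.6% and 82.5% of 4.5S reads in Mdd, against 62.3% and 61.5% in controls. The excess of Mdd replicate 2 over Mdd replicate 1 was 20.3-fold for this end and 15.1-fold for the end at base 40, which had 118 and 1780 CPM in Mdd, against 26.3 and 83.5 CPM in controls. It was smaller for the end at base 34, with 282 and 539 CPM in Mdd, against 125 and 202 CPM in controls. Reads that run past base 62 had 138 and 166 CPM in Mdd, against 105 and 127 CPM in controls, a range in which Mdd replicate 2 does not stand apart. Without the ends at bases 62 and 40, 4.5S-rRNA had 474 and 826 CPM in Mdd, against 269 and 390 CPM in controls. Of the 4.5S reads of Mdd replicate 2, 82.5% ended at base 62 and 11.9% at base 40. These positions were picked after the ends had been counted, and the shares that end at base 62 overlap between groups (exact permutation p = 1, n = 2 each).

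The sequence around base 62 is shown by the most read fragment that crosses it, with the bases after 62 in capitals.
4.5S bases 50 to 81: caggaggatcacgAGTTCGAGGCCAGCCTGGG
It had 9.52 and 3.82 CPM in Mdd, against 3.40 and 5.67 CPM in controls, and so was read in all 4 libraries. Neither the 3′ adapter sequence nor the trimming settings were at hand, and whether trimming sets the end at base 62 was not tested. The value at this base is thus where the deposited sequences end.

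**Figure D3:**
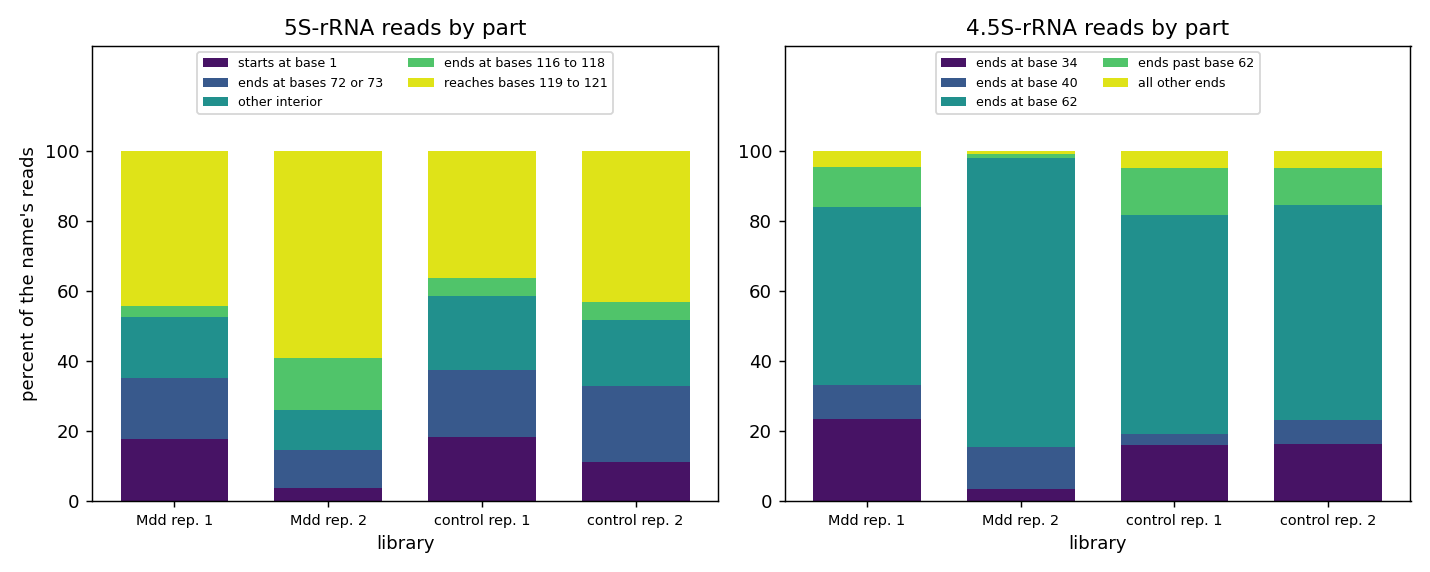
Percent of the 5S reads (left) and of the 4.5S reads (right) of each library by the part of the RNA they match, stacked to 100%. The end at base 62 takes 82.5% of 4.5S reads in Mdd replicate 2 and 50.6% in Mdd replicate 1, against 62.3% and 61.5% in control replicates 1 and 2.

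The fragments that end at base 62 formed a ladder of 28 lengths, one for each start from base 18 to base 45. These are all lengths from the 18 nt cut-off to the longest deposited, 45 nt, so that window sets both limits. The ladder had a short and a long group with a gap between them. Lengths of 18 to 23 nt held 71.1% and 42.9% of the ladder in Mdd, against 60.1% and 72.6% in controls. Lengths of 24 to 28 nt held 1.44% and 2.71% in Mdd, against 2.20% and 1.46% in controls. The long group, of 29 to 45 nt, held 27.5% and 54.4% in Mdd, against 37.7% and 25.95% in controls. All 28 lengths were higher in Mdd replicate 2 than in any other library, from the shortest to the longest. In the short group that library had 5286 CPM, against 431 CPM in Mdd replicate 1, 293 CPM in control replicate 1 and 548 CPM in control replicate 2. In the long group it had 6701 CPM, against 166 CPM, 184 CPM and 196 CPM in the same order of libraries.

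**Figure D4:**
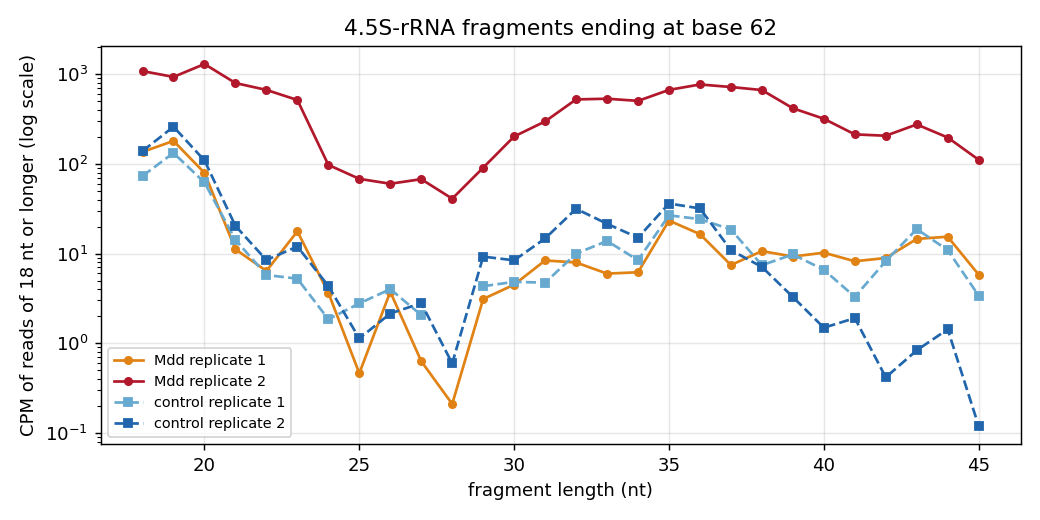
CPM (log axis) of each 4.5S fragment that ends at base 62, by its length in nt, with circles for Mdd and squares for control libraries. Mdd replicate 2 lies above the other 3 libraries at all 28 lengths, all libraries dip between 24 and 28 nt, and lengths with no read have no point.

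Single members of the ladder were highest in the same library. The 20-nt fragment of bases 43 to 62 had 79.5 and 1296 CPM in Mdd, against 62 and 109 CPM in controls, a log2 fold change of 3.70 (SE 1.74, adjusted p = 0.495 in edgeR). The 19-nt fragment of bases 44 to 62 led in the other 3 libraries, with 180 and 931 CPM in Mdd, against 132 and 259 CPM in controls. The ratio of Mdd replicate 2 to Mdd replicate 1 varied along the ladder, from 5.17 at 19 nt to 194 at 28 nt, where Mdd replicate 1 had 5 reads, and did not climb steadily with length. The 21-nt fragment of bases 42 to 62 had 11.2 and 796 CPM in Mdd, against 14.2 and 20.3 CPM in controls, which puts Mdd replicate 2 71.3-fold above Mdd replicate 1 and Mdd replicate 1 below both controls. All 6 4.5S fragments reported under the naming rule were highest in Mdd replicate 2, and 0 of the 6 had groups without overlap. Of all sequences tested, 7.84% had both Mdd libraries above both controls and 30.3% had both below. Their log2 fold changes ran from 2.14 to 5.27, with adjusted p-values of 0.405 to 0.787 in edgeR. The rule ranks mainly by mean CPM over the libraries, a mean that Mdd replicate 2 dominates in 4.5S-rRNA. That these fragments were highest in that library was thus largely fixed by the choice.

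Fragments with other 4.5S ends were divided. The 29-nt fragment of bases 12 to 40 had 2.19 and 248 CPM in Mdd, against 3.81 and 7.46 CPM in controls. By contrast, the 34-nt fragment of bases 1 to 34 had 94.2 and 104 CPM in Mdd, against 22.3 and 68.5 CPM in controls, so both Mdd libraries were alike and above the controls (log2 fold change 1.54, SE 0.88, adjusted p = 0.714 in edgeR). A fragment of bases 72 to 91, near the 3′ end, had 8.25 and 8.99 CPM in Mdd, against 3.30 and 2.92 CPM in controls. All 4.5S reads that start after base 62 had 45.1 and 37.2 CPM in Mdd, against 28.2 and 52.8 CPM in controls, which overlap. Of the 76 4.5S sequences read in all 4 libraries, 65 were highest in Mdd replicate 2, compared with 134 of 302 for 5S-rRNA. These sequences overlap one another, and the share of all sequences highest in that library was not counted. The median log2 ratio of Mdd replicate 2 to Mdd replicate 1 was 4.96 for the 27 of the 76 that end at base 62 and 2.33 for the other 49. Mdd replicate 1 over the control mean had medians of 0.30 for 4.5S-rRNA and 0.20 for 5S-rRNA on that log2 scale of CPM.

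By single sequence edgeR called 0 of 79093 annotated sequences in either direction (0%). For 5S-rRNA 536 of the 1164 members passed the filter on low counts, and 0 were called. Of them 16 were higher and 12 lower at an unadjusted p under 0.05, where the whole table had 1.26% on the higher and 12% on the lower side. For 4.5S-rRNA 143 of the 507 members passed the filter and 0 were called, with 18 higher and 5 lower at an unadjusted p under 0.05. DESeq2 called 4 5S and 19 4.5S sequences higher and 0 of either lower, against 0.178% of all sequences called higher and 0.0721% lower. The median log2 fold change was 0.78 for the 5S and 1.92 for the 4.5S sequences that passed the filter, beside -0.04 over all sequences tested. Both Mdd libraries were above both controls in CPM for 112 of the 536 5S and 44 of the 143 4.5S sequences, and below both for 77 and 16, where 7.84% of all sequences tested were above and 30.3% below. Because low counts were filtered, these counts describe the tested sequences and not all members.

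5S fragments were short, with reads at nearly every length. Mean lengths were 24.1 and 25.2 nt in Mdd, against 24.7 and 22.8 nt in controls. The shortest length kept, 18 nt, was the most frequent in Mdd replicate 1 and both controls and held 15.5% and 10.6% of 5S reads in Mdd, against 22.9% and 23.5% in controls. This lower edge matters, since 15 to 17 nt reads of 5S numbered 2059 and 2086 in Mdd, against 32383 and 69974 in controls. Averaged over the libraries a second peak lay at 22 nt, although in Mdd replicate 2 and control replicate 2 the length of 23 nt held more reads. The 22-nt length held 9.18% and 9.47% in Mdd, against 6.43% and 7.33% in controls. In Mdd replicate 2 the most frequent length was instead 23 nt, with 11.5%. At the long end, 40 to 45 nt, lay 7.92% and 10.02% of 5S reads in Mdd, against 8.58% and 1.08% in controls, so control replicate 2 was low there. Per the labels, RNA of 18 to 40 nt was selected, so reads under 18 nt or over 40 nt lie outside that window.

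4.5S fragments were longer and had 2 length groups. Mean lengths were 26.5 and 29.2 nt in Mdd, against 26.4 and 24.8 nt in controls (exact permutation p = 0.333, n = 2 each). Averaged over the libraries there were peaks at 19 and 34 nt, but neither was a peak in Mdd replicate 2, whose largest shares were at 20 nt and, among long reads, at 36 nt. The 19-nt length held 16.4% and 6.60% in Mdd, against 18.6% and 23.4% in controls. The 34-nt length held 8.97% and 4.18% in Mdd, against 4.22% and 7.56% in controls. The same length stood for different fragments, since bases 29 to 62 led it in Mdd replicate 2 with 503 CPM, and bases 1 to 34 led it in the other 3 libraries.

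**Figure D5:**
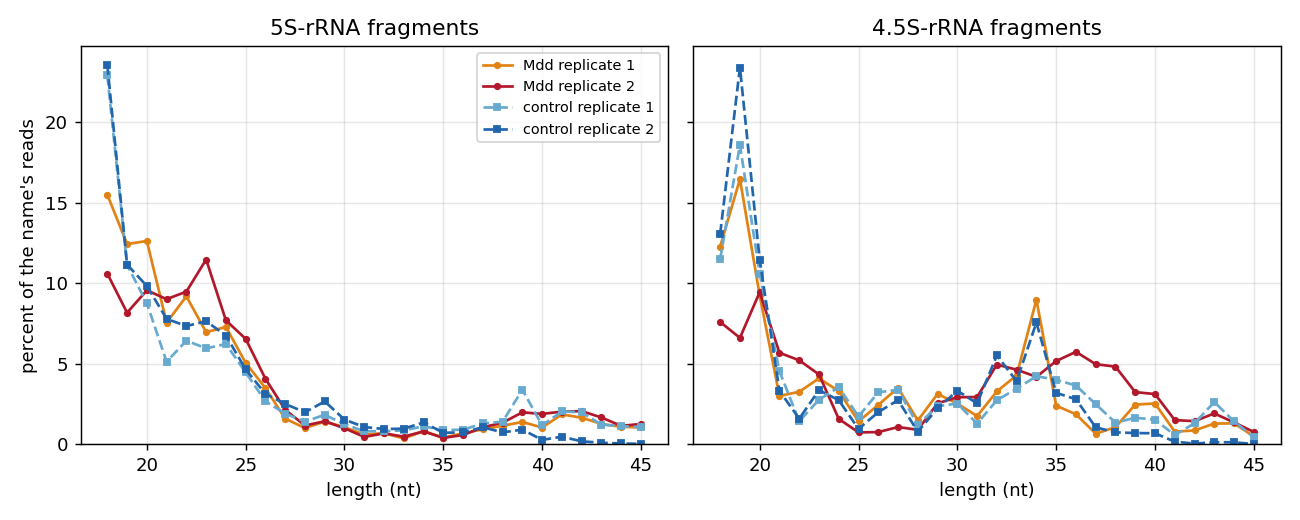
Percent of a name's reads at each length from 18 to 45 nt, for 5S on the left and 4.5S on the right, with circles for Mdd and squares for control libraries. 5S reads of 18 nt reach 22.9% and 23.5% in controls, above the 15.5% and 10.6% of the Mdd libraries.

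The last 2 bases of the reads followed from where they end on the RNA. TT, mostly the end at bases 73, 120 and 121, was the most frequent pair in 5S, with 38.4% and 47.9% of reads in Mdd, against 32.3% and 37.8% in controls. CT, mostly the end at bases 20 and 119, held 19.9% and 14.7% in Mdd, against 14.9% and 14.6% in controls. GT, mostly the end at base 72, held 13.3% and 9.49% in Mdd, against 16.2% and 17.8% in controls. In 4.5S-rRNA, CG, nearly always the end at base 62, held 50.9% and 82.6% in Mdd, against 62.7% and 62.3% in controls. GC, mostly the end at base 34, held 25.0% and 3.82% in Mdd, against 17.2% and 18.0% in controls. Groups did not overlap for 7 of the 16 pairs in 5S and 6 of the 16 in 4.5S, beside 4 of the 16 over all reads of 18 nt or longer, each with an exact permutation p of 0.333, and the lowest adjusted p over the 16 pairs was 0.762 for 5S and 0.889 for 4.5S.

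Reads that end in GG set Mdd replicate 2 apart in the whole library. Over all reads of 18 nt or longer they made up 7.08% and 33.6% in Mdd, against 9.998% and 8.47% in controls. In 5S-rRNA they made up 3.53% and 12.6% in Mdd, against 4.38% and 5.59% in controls. In 4.5S-rRNA the 2 Mdd libraries were closer, at 13.6% and 12.3%, against 6.79% and 8.99% in controls. 18S-rRNA had 13.9% and 54.6% in Mdd, against 16.4% and 15.3% in controls, while 5.8S-rRNA lay between 5.94% and 6.77% in all 4. With GG-ended reads left out of members and totals, 4.5S-rRNA had 1113 and 19706 CPM in Mdd, against 811 and 1221 CPM in controls. On the same footing 5S-rRNA had 5476 and 11496 CPM in Mdd, against 4607 and 4595 CPM in controls. In Mdd replicate 2 GG ends were a smaller share of both names than of all reads, so leaving them out had to raise its CPM. That it stayed the highest library for both names was thus fixed by these shares.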

How the data were processed

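The deposited files list each distinct sequence of 15 to 45 nt with its length, a mark for a genome match, an annotation and a raw read count, per the file headers. The submitters' processing notes name DESeq2 and mm9; the aligner, the adapter and its trimming, and the annotation databases are not given in these sources. Where a trimmer cuts sets the deposited 3′ end, and so bears on end positions, last bases and lengths. The deposited counts were joined by sequence, and a sequence took the annotation given by any library; no member had conflicting names. Lengths are the authors' deposited values.

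Sequences of 18 nt or longer were kept, and CPM scales counts to the total of such reads. Counts per name and per annotated sequence were tested over the whole table with the two-sided quasi-likelihood test of edgeR 4.0.16 under R 4.3.3, after filterByExpr and TMM scaling. P-values were adjusted by Benjamini-Hochberg over all features tested, and 0.05 was the threshold. SE is the log2 fold change over the root of F. Shares, lengths and ends were compared by exact two-sided permutation tests. Members were assembled into their RNA by overlaps of at least 15 nt. The fits were tested on simulated data. Same-numbered libraries did not deviate together (correlation -0.03 by name and 0.01 by sequence), so the numbers were not taken as pairs.

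Named fragments are, by rule, the 8 5S and 6 4.5S sequences of highest mean CPM, any past the threshold, and the most read of each library and of each peak length. 1 of them is not reported here. The other fragments, and the marked end positions, were chosen after their values were seen. Members and lists were chosen with earlier results of these data known. Alternatives were RLE scaling, library size alone or of all reads, no filter, DESeq2 1.42.0, a minimum mean CPM of 10, the replicate number as a block, a minimum length of 15 or 20 nt, genome-matched sequences only, annotation as deposited, other denominators, each sequence counted once, and each library left out. Leaving out GG-ended reads was chosen after seeing the data.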

Additional observations from a re-analysis of the deposited data

How the results depend on the processing

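Both levels by name kept their sign in every alternative run. Of the alternatives that kept all libraries, 4.5S-rRNA passed the threshold with DESeq2 (log2 fold change 3.67) and in edgeR with no filter (3.75, adjusted p = 7.92e-05). Its value was 4.69 without Mdd replicate 1 and 0.47 without Mdd replicate 2. 5S-rRNA passed in no alternative that kept all libraries, and its values ran from 0.45 to 1.76 over left-out libraries. With the replicate number as a block, edgeR called 1 4.5S sequence higher, and the values by name were 1.07 for 5S-rRNA and 2.55 for 4.5S-rRNA. Sequences called higher numbered 4 for 5S and 19 for 4.5S with DESeq2 and 16 for 4.5S with no filter, and ran from 0 to 20 for 5S and 0 to 55 for 4.5S over left-out libraries, the highest without Mdd replicate 1 and 1 for 4.5S without control replicate 1. A left-out library leaves its group with 1, which is assumed to vary like the others. How many of all sequences tested were called with no filter, with the block or without a library is not given here. Calls of 5S and 4.5S sequences under those settings thus cannot be set against the whole table, and whether they exceed its share was not tested.

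Differences between groups in composition, in percentage points unless stated, turned sign as follows, and the cause was not tested. From 15 nt upward they were 0.314 for 5S at 18 nt, 0.133 for 4.5S at 19 nt, -8.94 for CG, 3.05 for GC and -7.60 for base 62 in 4.5S, and 0.522 for 5S starts at base 1. From 20 nt upward they were -0.0803 nt for 5S mean length, -0.233 for 4.5S at 34 nt and -0.991 for 4.5S starts at base 1. With each sequence counted once they were -0.254 for 5S at 22 nt, 0.780 for GT and 0.779 for starts at base 1 in 5S, and -2.68 for CG, 0.889 for GC, -1.43 for starts at base 1 and -2.37 for base 62 in 4.5S. Over left-out libraries 5S ranged from -0.0903 to 1.85 nt in mean length, -1.46 to 7.57 for GG, -0.0228 to 5.16 for CT and -11.0 to 3.05 for starts at base 1. In 4.5S the ranges were -1.71 to 3.08 at 34 nt, -11.6 to 20.1 for CG, -13.8 to 7.44 for GC, -4.62 to 4.79 for starts at base 1 and -11.3 to 20.7 for base 62.

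Of 205 alternative values for 14 named fragments, 183 kept sign and side of the threshold, 9 newly passed it and 13 turned sign, as log2 fold changes. The 5S fragment of bases 55 to 72 had 0.030 with RLE scaling and with DESeq2 and 0.010 for genome-matched sequences. Over left-out libraries it ranged from -0.42 to 0.13, and 5S bases 1 to 20 from -0.86 to 1.38 and 1 to 19 from -0.51 (-0.07 without control replicate 2) to 1.26. Both of these 5′ fragments were lowest without Mdd replicate 1. Bases 103 to 120 ranged from -0.25 without Mdd replicate 2 to 0.91. In 4.5S the lowest value came without Mdd replicate 2 and the highest without Mdd replicate 1: -0.15 to 4.57 for bases 43 to 62, -0.16 to 2.90 for 44 to 62, -0.67 to 6.17 for 42 to 62, -0.81 to 5.42 for 27 to 62 and -0.97 to 6.07 for 29 to 62. With 2 libraries a group and depths of 9706895 to 23806805 reads, the few libraries, the counting error and the unequal reads of 15 to 17 nt each limit these comparisons, and their weights were not compared.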
